A study of Mus musculus with 12 samples.

Results

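DNA repair and damage signalling genes were followed as a group of 47 among the 55416 Ensembl gene IDs counted in mouse embryonic stem cells. They were chosen by name for their known roles, with earlier results of these data known. All 47 were found and all passed the filter on low counts, which left 17702 genes for testing. The lowest count of any of them in a library was 375 reads (Fancb). The cells were of the E14Tg2a.4 line and carried Rpl31, a protein of the large ribosomal subunit, with a FLAG-TEV-AviTag, written Rpl31-FTA in the sample names. This tag, and culture in serum with leukemia inhibitory factor, were common to every group. ALIBi, a proximity biotinylation system, was directed to the endoplasmic reticulum (ER), so that ribosomes close to the ER were biotinylated on the tag and purified with their mRNA.

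The 12 libraries form 4 groups of 3 biological replicates. In the first, mRNA came from ER-labelled ribosomes of cells given a scramble siRNA, and in the second it was whole-cell RNA of those lysates. The remaining groups are the same fractions from cells in which siRNA targeted Lsg1, a GTPase of late large ribosomal subunit assembly. Levels are given as CPM, read counts scaled to a common library size, after TMM normalisation, which corrects for differences in library composition. Folds are log2 values from edgeR with their standard error (SE), and a gene is called higher or lower where its p, adjusted over all tested genes, is under 0.05.

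Cells meet DNA damage with a signalling layer and a set of repair pathways. The kinases Atm, Atr and Prkdc sense broken or stalled DNA and pass the signal through adaptors to Chek1 and Chek2, while homologous recombination, end joining, the Fanconi anaemia pathway, excision repair and mismatch repair mend different lesions. Nearly all of these proteins work in the nucleus and are made without a signal peptide, the N-terminal hydrophobic stretch that takes a ribosome to the ER membrane. Embryonic stem cells divide rapidly and are known for high activity of homologous recombination and mismatch repair.

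Libraries held 38092178 to 56522114 reads in genes. The 8 pluripotency markers averaged at least 326 CPM in every group, and 5 of 8 fibroblast or feeder markers lay under 1 CPM in each group. The summed level of these fibroblast or feeder markers was 28.0 to 31.3 CPM in whole-cell and 49.0 to 60.1 CPM in ER-bound libraries, and its part in the results was not tested. The siRNA target was read first. Lsg1 stood at 136, 145 and 149 CPM in whole-cell RNA with scramble siRNA and at 83.5, 96.7 and 114 CPM with Lsg1 siRNA, so the groups did not overlap, but the fold missed the threshold (log2 -0.55, SE 0.10, edgeR adjusted p = 0.245). Over the alternative settings that adjusted p ran from 1.7e-33 to 1. On ER-labelled ribosomes Lsg1 stood at 143, 149 and 151 CPM with scramble siRNA and at 35.4, 42.5 and 52.5 CPM with Lsg1 siRNA (log2 -1.77, SE 0.11, adjusted p = 6.3e-08). An unnamed gene, ENSMUSG00000119584.1, set apart ER-bound scramble replicate 3 (18470 CPM) and whole-cell Lsg1 replicate 3 (15600 CPM) from the other 10 libraries (1115 to 4143 CPM); without both libraries 41 members were lower and 3 higher in each fraction comparison.

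mRNAs of DNA repair genes were mostly less abundant on ER-labelled ribosomes than in the whole cell. With scramble siRNA, 41 of the 47 were lower in ER-bound than in whole-cell RNA, 3 were higher (Xrcc1, Ercc1 and Xpa) and 3 did not pass the test (Nbn, Fance and Fancg). Of all tested genes, 29.1% were called lower and 29.8% higher in this comparison. The median log2 fold of the members was -0.44, against 0.03 over all tested genes. In all 41 lower members the 3 ER-bound values lay below the 3 whole-cell values. That was read only in genes already called lower, and its share over all tested genes was not counted. By at least 2-fold, 8 of the 47 members were called lower, against 568 of all 17702 tested genes. A lower ratio may belong to fewer ribosomes at the ER or to fewer ribosomes anywhere on that mRNA. Without RNA from all ribosomes these cannot be told apart. Only the ER-bound fraction was purified, so an effect of the purification on the folds cannot be told apart from these either. Its effect on long mRNAs was not tested. For a low level itself, fewer cells holding an mRNA and less of it per cell cannot be told apart. With library totals in place of TMM, 39 members were lower and 4 higher, the lost calls being Rad51c (-0.12, adjusted p = 0.092) and Fancl (-0.07, adjusted p = 0.154), while the split over all tested genes went from 5279 higher and 5143 lower to 6438 higher and 4144 lower.

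**Figure D1:**
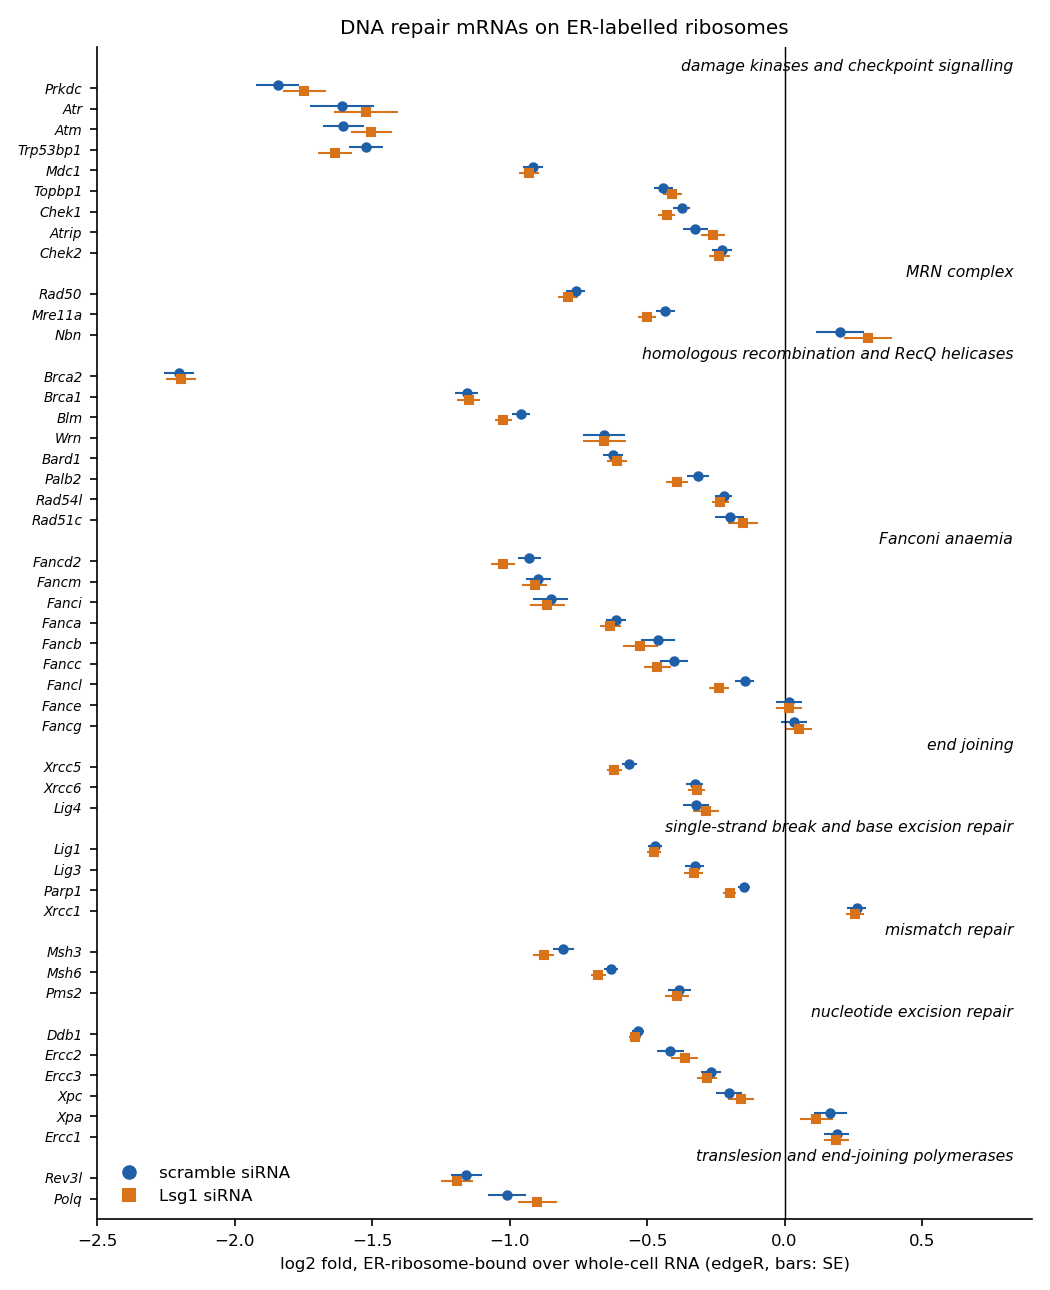
Log2 fold of ER-ribosome-bound over whole-cell RNA for each of the 47 genes, grouped by role, with scramble (circles) and Lsg1 siRNA (squares); bars are the SE from edgeR. Most points lie left of 0, from -2.20 for Brca2. Xrcc1, Ercc1, Xpa and Nbn lie to the right, and Fance and Fancg lie just right of 0.

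Damage kinases and their adaptors had the lowest median among roles of more than 2 genes. All 9 were lower, with a median log2 fold of -0.92. Prkdc, the catalytic subunit of DNA-dependent protein kinase, was measured at 11.5, 15.0 and 16.7 CPM on ER-labelled ribosomes and at 50.6, 53.4 and 50.8 CPM in whole-cell RNA. The 2 fractions were far apart in every library, and the fold was -1.84 (SE 0.08, adjusted p = 1.3e-12). Atr, the kinase that answers stalled replication forks, had a fold of -1.61 (SE 0.12) and Atm, the kinase activated by broken DNA, one of -1.61 (SE 0.08). Trp53bp1, a chromatin adaptor that steers break repair towards end joining, followed with -1.52 (SE 0.06), and Mdc1, the scaffold that binds phosphorylated histone H2AX, with -0.92 (SE 0.04). The smaller proteins of the pathway moved less. Topbp1, an activator of Atr, had a fold of -0.44, the effector kinase Chek1 -0.37 and Atrip, the binding partner of Atr, -0.32. Chek2, the effector kinase downstream of Atm, was the least lowered at 44.2, 44.3 and 45.0 CPM against 51.8, 51.6 and 53.0 CPM (fold -0.23, SE 0.04, adjusted p = 3.4e-05). Its ER-bound level was 85.4% of the whole-cell level, without overlap.

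Homologous recombination copies the sister chromatid to mend a break, and all 8 of its genes, RecQ helicases included, were lower, with a median of -0.64. Brca2, a tumour suppressor that also protects stalled replication forks, had the lowest fold of all 47. It stood at 23.1, 25.5 and 27.3 CPM on ER-labelled ribosomes and at 115, 115 and 119 CPM in whole-cell RNA. All ER-bound values were thus far under all whole-cell values, at 21.8% of the whole-cell level (fold -2.20, SE 0.06, adjusted p = 3.4e-15). Brca1, the ubiquitin ligase that promotes end resection, had a fold of -1.16 (SE 0.04), and its partner Bard1 one of -0.62 (SE 0.04). Of the helicases, Blm had -0.96 and Wrn -0.66. Palb2, the bridge between Brca1 and Brca2, had -0.31 and Rad54l, a DNA motor protein of the Swi2/Snf2 family, -0.22. The highest of the group was Rad51c at 29.4, 29.8 and 27.4 CPM against 34.5, 33.3 and 31.8 CPM (fold -0.20, SE 0.05, adjusted p = 0.00366); its values came close without overlapping.

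The MRN complex, which holds and trims broken ends, was divided. Rad50, its long coiled-coil ATPase, stood at 68.7, 71.7 and 70.5 CPM on ER-labelled ribosomes and at 121, 116 and 120 CPM in whole-cell RNA, a fold of -0.76 (SE 0.04, adjusted p = 5.6e-12). Mre11a, the nuclease, had a fold of -0.43 (SE 0.03). Nbn, the subunit that recruits Atm, went the other way in most libraries, at 42.2, 60.5 and 59.0 CPM against 47.8, 46.9 and 45.9 CPM. ER-bound replicate 1 was below all 3 whole-cell libraries and replicates 2 and 3 were above them. The fold of 0.20 (SE 0.09) did not pass the edgeR test (adjusted p = 0.059). With ER-bound replicate 1 left out it was 0.35 (adjusted p = 9.5e-08), without ER-bound replicate 2 it was 0.09 (adjusted p = 0.386) and without ER-bound replicate 3 it was 0.12 (adjusted p = 0.279). With the shared lysate as a block it was 0.19 (adjusted p = 0.0477), and under the GC and length offset 0.08 (adjusted p = 0.484), the extremes of the adjusted p over the alternatives being 9.5e-08 and 0.484.

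In the Fanconi anaemia pathway, which frees DNA from interstrand crosslinks, 7 of 9 genes were lower and the median was -0.46. Fancd2, the clamp that is ubiquitinated at the lesion, was the lowest at 51.5, 58.7 and 57.1 CPM against 104, 105 and 110 CPM (fold -0.93, SE 0.04, adjusted p = 3.2e-12). Its clamp partner Fanci had a fold of -0.85 (SE 0.06), and Fancm, the translocase that brings the complex to the fork, -0.90 (SE 0.05). The core complex members Fanca, Fancb and Fancc had folds of -0.61, -0.46 and -0.40, and Fancl, its ubiquitin ligase, -0.15. Fancg, another core subunit, was the highest, at 16.6, 15.96 and 16.8 CPM against 16.5, 16.3 and 15.5 CPM. These values overlapped and the fold was 0.04 (SE 0.05, adjusted p = 0.545). Fance, which links the core complex to Fancd2, had a fold of 0.02 (SE 0.05, adjusted p = 0.806).

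All 3 end joining genes were lower, with a median of -0.33. Xrcc5, the larger Ku subunit that grips free DNA ends, was the lowest, at 150, 146 and 143 CPM against 214, 216 and 219 CPM (fold -0.56, SE 0.03, adjusted p = 9.2e-12). Xrcc6, the smaller Ku subunit, had a fold of -0.33 (SE 0.03). Lig4, the ligase that seals the join, stood at 18.0, 17.7 and 18.8 CPM against 23.7, 22.5 and 22.1 CPM, with no overlap (fold -0.32, SE 0.05, adjusted p = 9.6e-06).

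Among 4 genes of base excision and single-strand break repair, 3 were lower and Xrcc1 was higher. Lig1, the replicative ligase, was the lowest at 249, 249 and 257 CPM against 345, 348 and 354 CPM (fold -0.47, SE 0.03, adjusted p = 2.8e-11). Lig3 had a fold of -0.33 and Parp1, the sensor of nicked DNA, -0.15 (SE 0.02, adjusted p = 1.7e-05). Xrcc1, the scaffold on which Lig3 works, had the highest fold of the 47, at 84.9, 84.4 and 83.7 CPM against 69.0, 70.0 and 72.0 CPM. All 3 ER-bound values were above all whole-cell values (fold 0.26, SE 0.03, adjusted p = 1.7e-06). With an offset for GC content and transcript length, the fold of Xrcc1 was 0.03 (adjusted p = 0.545), and over its alternatives the call was lost only under that offset, with or without the block.

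Mismatch repair removes replication errors, and its 3 genes were all lower. Msh3, which recognises longer loops, was the lowest at 32.1, 34.6 and 33.6 CPM against 56.9, 58.1 and 60.2 CPM (fold -0.80, SE 0.04, adjusted p = 4.5e-12). Msh6, which recognises single mismatches, had the higher level per length of the pair and had a fold of -0.63 (SE 0.03). Pms2, the nicking subunit, was the highest at 23.1, 25.03 and 25.5 CPM against 31.6, 31.6 and 32.8 CPM (fold -0.38, SE 0.04, adjusted p = 3.3e-07). No library of one fraction reached into the range of the other for any of these 3 genes.

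Nucleotide excision repair cuts out bulky lesions, and 4 of its 6 genes were lower and 2 higher, with a median of -0.24. Ddb1, part of the ultraviolet damage sensor and of a ubiquitin ligase, had the highest whole-cell level of the 47 and was the lowest in fold, at 788, 791 and 813 CPM against 1151, 1140 and 1171 CPM (fold -0.53, SE 0.02, adjusted p = 1e-12). The helicases Ercc2 and Ercc3 had folds of -0.42 and -0.27, and the damage sensor Xpc -0.20. Ercc1, which with its partner nuclease makes the cut on the 5′ side, was the highest, at 29.2, 29.9 and 30.7 CPM against 24.96, 26.4 and 27.2 CPM (fold 0.19, SE 0.05, adjusted p = 0.00155). Xpa, the damage verification factor, had a fold of 0.17 (SE 0.06, adjusted p = 0.022). Neither direction was stable to the offset for GC content and length, under which Ercc1 was lower with -0.11 (adjusted p = 0.0367) and Xpa stood at -0.06 (adjusted p = 0.37); Xpa also missed the threshold in DESeq2 (0.15, adjusted p = 0.0921). Without ER-bound replicate 1, ER-bound replicate 2 or whole-cell replicate 3, the adjusted p of Xpa was 0.0895, 0.0744 and 0.149.

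The damage-tolerant polymerases were both lower. Rev3l, the catalytic subunit of translesion polymerase zeta, stood at 19.4, 22.3 and 22.4 CPM against 45.4, 47.03 and 50.2 CPM (fold -1.16, SE 0.06, adjusted p = 7e-12). Polq, the polymerase of microhomology-mediated end joining, stood at 9.48, 11.9 and 12.3 CPM against 21.7, 23.1 and 22.9 CPM (fold -1.01, SE 0.07, adjusted p = 7e-10). Their ER-bound levels were 44.9% and 49.7% of the whole-cell levels.

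**Figure D2:**
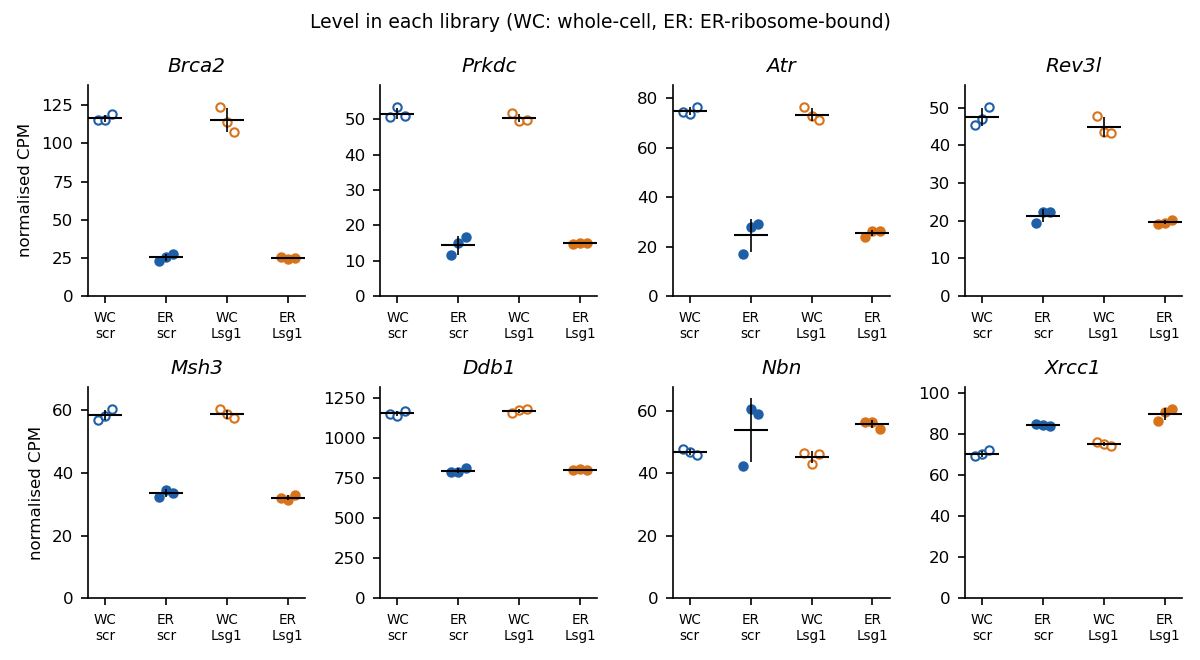
CPM in each library for 8 genes, in whole-cell (WC, open) and ER-bound (ER, filled) RNA with scramble (scr) or Lsg1 siRNA; bars are mean and SD of 3 replicates. With scramble siRNA Brca2 lies at 115 to 119 CPM in whole-cell and 23.1 to 27.3 CPM in ER-bound RNA, Xrcc1 is higher in ER-bound RNA, and 1 scramble ER-bound library of Nbn and Atr lies below the other 2.

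One library weighed on the long members. ER-bound scramble replicate 1 was the lowest of its 3 replicates for 34 of 47 members, a count not made over all tested genes. In that library the median log2 deviation from the other replicates was -0.076 over the members and -0.009 over all tested coding genes. Atr was at 16.8 CPM there and at 27.8 and 29.0 CPM in the others, and Fanci at 39.3 CPM against 49.3 and 51.4 CPM. For the 11 members with a coding region of at least 4500 nucleotides (nt), its median log2 deviation from the other replicates was -0.21, and for all 817 tested genes of that length it was -0.19. What set this library apart was not tested. Without it, 41 members were lower and 3 higher, with Nbn in place of Xpa beside Xrcc1 and Ercc1.

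In cells given Lsg1 siRNA, a comparison that shares no library with the scramble one, 41 members were again lower, 3 were higher (Xrcc1, Ercc1 and Nbn) and 3 did not pass (Fance, Fancg and Xpa). The background here was 29.8% of tested genes lower and 30.6% higher. The same 41 genes were lower with either siRNA, and the median fold was -0.47. With Lsg1 siRNA the call of Rad51c was lost without ER-bound replicate 2 (-0.14, adjusted p = 0.0582) or whole-cell replicate 2 (-0.12, adjusted p = 0.0915). Brca2 stood at 25.8, 24.6 and 25.1 CPM on ER-labelled ribosomes and at 124, 114 and 108 CPM in whole-cell RNA, a fold of -2.20 (SE 0.06, adjusted p = 3.1e-15). Members lower by at least 2-fold numbered 9, against 593 of all 17702 tested genes. Beside the scramble list, Blm (-1.02) and Fancd2 (-1.02) joined, and Polq (-0.90) left. Nbn was at 56.6, 56.4 and 54.4 CPM against 46.7, 43.1 and 46.1 CPM, without overlap, and was called higher (fold 0.30, SE 0.09, adjusted p = 0.00649). Under the GC and length offset its fold was 0.17 (adjusted p = 0.0955) and that of Xrcc1 0.01 (adjusted p = 0.86). Across 46 members with a coding length, the folds of the 2 siRNAs correlated with Pearson r = 0.995, and across 14599 tested coding genes with r = 0.919; genes within a library are not independent replicates. With library totals 39 members were lower and 5 higher, the lost calls being Rad51c (-0.06, adjusted p = 0.389) and Xpc (-0.07, adjusted p = 0.217), and the split over all tested genes went from 5412 higher and 5271 lower to 6686 higher and 4142 lower.

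Length was what the lowest members shared. Coding length ran from 840 nt in Xpa to 12387 nt in Prkdc, and its log2 value went with the scramble fold at r = -0.867 (Spearman rho = -0.849, 46 members; Fance had no coding length). Over 14599 tested coding genes r was -0.418. Among the members, GC content gave r = 0.470 and the length of the 3′ untranslated region r = -0.163, and the log2 whole-cell level gave r = -0.177. These are descriptions across genes that share libraries. Prkdc, Brca2, Rev3l, Atm, Atr and Polq, the 6 longest coding regions, were all among the 8 members lowered by at least 2-fold.

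The members were also set beside genes of like length. Of those with a coding region under 1500 nt, 3 of 5 were lower against 15.5% of all tested coding genes in the class, and of those from 1500 to 3000 nt, 15 of 18 (83.3%) against 44.1%. From 3000 to 4500 nt, 12 of 12 were lower against 61.9%, and above that 11 of 11 against 71.8%. The members' medians in these classes were -0.15, -0.33, -0.64 and -1.16, and those of all tested coding genes 0.16, -0.10, -0.36 and -0.67. By transcript length, 0 of 2 members under 2000 nt were lower and 2 were higher, against 7.19% and 54.2% of all. From 2000 to 4000 nt, 13 of 17 were lower against 25.9%, and from 4000 to 6000 nt 16 of 16 against 45.1%. Over 6000 nt, 12 of 12 were lower against 63.8%. With the GC and length offset 42 members were lower and 0 higher. Over all tested genes the split went from 5279 higher and 5143 lower to 4501 higher and 5750 lower. The median fold of all tested genes went from 0.03 to -0.04. Of the 41 members, 39 were still lower, joined by Fance, Fancg and Ercc1. Lig3 (-0.08) and Lig4 (-0.12) lost their calls with edgeR adjusted p = 0.0547 and 0.0515. The fold was smaller by over 1.5 times in 15 of the 41 and larger by as much in 2. Of the 8 members lower by at least 2-fold, 5 stayed so: Brca2 (-1.598), Prkdc (-1.18), Atr (-1.10), Atm (-1.06) and Trp53bp1 (-1.01). Brca1 moved to -0.85, Polq to -0.56 and Rev3l to -0.55, and among members with smaller folds Mre11a moved to -0.21 and Pms2 to -0.11. The coding-length classes were set after the values were seen.

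**Figure D3:**
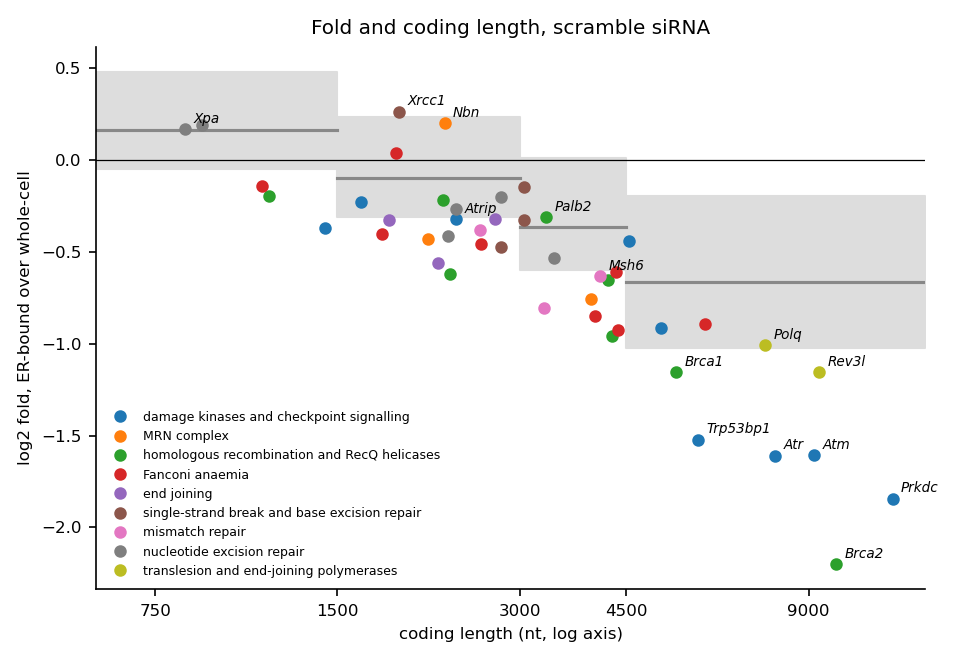
Log2 fold of ER-bound over whole-cell RNA with scramble siRNA against coding length (log axis) for 46 members, coloured by role; grey lines and bands are the median and quartiles of all tested coding genes in 4 length classes. The members fall with length, and their medians lie under the grey line in every class.

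The coding starts are shown because a hydrophobic N-terminus is what takes many ribosomes to the ER. Given here are the first 120 coding bases of the 3 members with the lowest folds, of Xrcc1 as the highest member, of Xrcc5 as the member with the most hydrophobic start, and of Hspa5, an ER chaperone with a signal peptide, as the contrast. Capitals mark the 11 codons with the highest mean Kyte-Doolittle hydropathy, a scale of how water-avoiding each amino acid is, within the first 40. Sequences are coding exons on the plus strand of chromosomes 5, 16, 9, 7, 1 and 2 in this order, from GENCODE M21 on GRCm38.
Brca2: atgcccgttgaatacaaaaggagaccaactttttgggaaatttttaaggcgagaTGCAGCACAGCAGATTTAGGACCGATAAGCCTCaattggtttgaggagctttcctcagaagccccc
Prkdc: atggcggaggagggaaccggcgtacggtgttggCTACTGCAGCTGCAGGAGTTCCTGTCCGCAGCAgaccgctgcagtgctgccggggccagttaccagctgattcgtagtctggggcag
Atr: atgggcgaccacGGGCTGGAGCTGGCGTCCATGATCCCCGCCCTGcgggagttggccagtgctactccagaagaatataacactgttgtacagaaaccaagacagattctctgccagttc
Xrcc1: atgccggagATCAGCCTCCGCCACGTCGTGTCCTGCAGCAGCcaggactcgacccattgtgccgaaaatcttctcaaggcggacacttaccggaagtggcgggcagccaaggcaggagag
Xrcc5: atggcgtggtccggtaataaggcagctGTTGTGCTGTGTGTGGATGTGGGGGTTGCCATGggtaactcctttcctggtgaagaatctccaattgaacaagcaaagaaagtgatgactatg
Hspa5: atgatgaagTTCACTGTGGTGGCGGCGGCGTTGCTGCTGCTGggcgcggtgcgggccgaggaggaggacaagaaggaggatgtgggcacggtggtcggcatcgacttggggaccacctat

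The marked windows had a mean hydropathy of 0.78 in Brca2, 0.94 in Prkdc, 1.37 in Atr, 0.76 in Xrcc1, 2.46 in Xrcc5 and 2.83 in Hspa5. None of 46 members reached 2.51, the 90th percentile of all tested coding genes, while 10 of 14 ER chaperones and disulfide isomerases did. The medians were 0.73 for the members, 2.65 for the chaperones and 0.94 for all tested coding genes. All 14 chaperone and isomerase genes were higher in ER-bound RNA (median fold 0.87), and Hspa5 stood at 821, 747 and 781 CPM against 455, 456 and 468 CPM (fold 0.77, SE 0.03, adjusted p = 1.9e-12). Xrcc5, with a start near that percentile, had a fold of -0.56. Among the members hydropathy of the start went with the fold at r = -0.164 and among all tested coding genes at r = 0.315. The fall with length was also seen in genes above the percentile, whose median fold was 0.71, 0.51, 0.28 and -0.04 in the 4 coding-length classes, from short to long. Below the percentile, where the 46 members lie, the medians of all tested coding genes were 0.13, -0.13, -0.40 and -0.73. Of those genes 17.2%, 48.6%, 66.2% and 76.4% were lower.

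Partners within a complex differed, and the ratio could be read in each of the 6 lysates. These pairs were chosen after their values were seen, so no test is given. The log2 ratio of Atr ran from -2.15 to -1.40 and that of Atrip from -0.37 to -0.15; Atr was lower in every lysate, by 1.29 on average. Brca2 ran from -2.31 to -2.10 and Palb2 from -0.41 to -0.23. Prkdc ran from -2.14 to -1.61, while the Ku subunits Xrcc5 and Xrcc6 ran from -0.65 to -0.51 and from -0.35 to -0.27. In none of these pairs did the ranges touch. Brca1 ran from -1.25 to -1.08 and Bard1 from -0.72 to -0.54. Rad50 ran from -0.87 to -0.69, Mre11a from -0.59 to -0.41 and Nbn from -0.18 to 0.39. Fancd2 (-1.08 to -0.84) and Fanci (-1.11 to -0.72) overlapped, the 1 pair of 10 that did. Msh3 lay from -0.92 to -0.75 and Msh6 from -0.69 to -0.61. Xrcc1 (0.18 to 0.31) lay above Lig3 (-0.37 to -0.28) in every lysate. Partners also differed in coding length, with Atr at 7926 and Atrip at 2358 nt and Brca2 at 9990 and Palb2 at 3315 nt. Prkdc had 12387 nt, Xrcc5 2199 nt and Xrcc6 1827 nt, while Fancd2 had 4353 and Fanci 3993 nt. Msh6 (4077 nt) was longer than Msh3 (3288 nt) yet had the higher ratio. The part of length in these gaps was not tested.

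**Figure D4:**
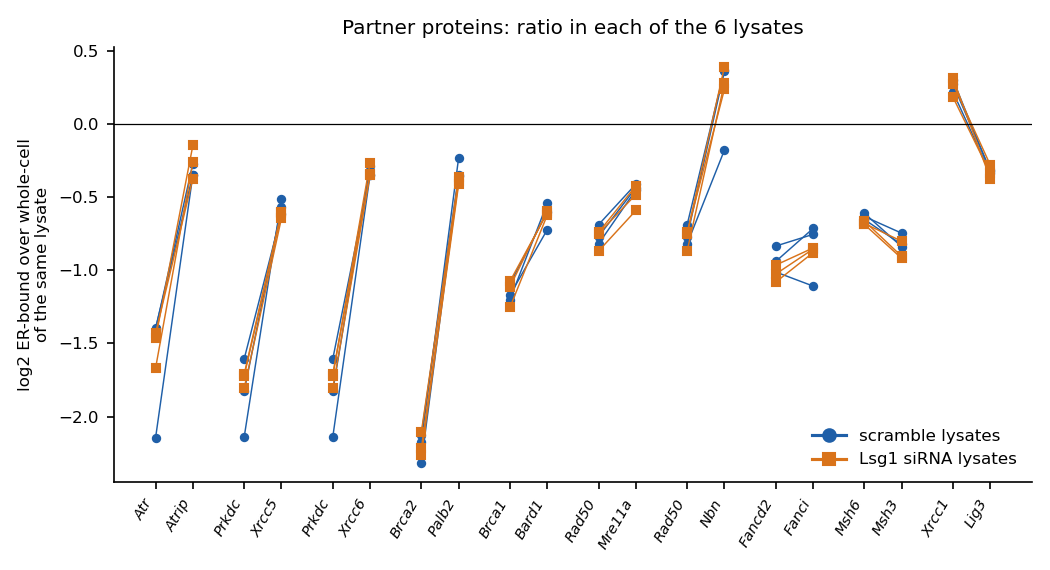
Log2 ratio of ER-bound to whole-cell RNA of the same lysate for 10 pairs of partner proteins; each line is 1 of 6 lysates, 3 with scramble and 3 with Lsg1 siRNA. Lines run steeply for Atr and Atrip, for Prkdc and the Ku subunits and for Brca2 and Palb2, and cross for Fancd2 and Fanci.

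Lsg1 siRNA changed no member past the threshold. In whole-cell RNA 0 of 47 members were called, 2 had an unadjusted p under 0.05, and edgeR called 0 (0%) of 17702 genes, of which 731 had an unadjusted p under 0.05; DESeq2 called 5 genes. Every member's 95% interval stayed within 1.2-fold in either direction. Xrcc1 had the smallest p, at 76.0, 74.9 and 74.1 CPM with Lsg1 siRNA against 69.0, 70.0 and 72.0 CPM (fold 0.09, SE 0.03, edgeR adjusted p = 1). Its values did not overlap, in a gene picked for its small p. Lig4 stood at 20.7, 20.7 and 22.1 CPM against 23.7, 22.5 and 22.1 CPM (fold -0.11), ranges that nearly met, and Rev3l at 47.9, 43.5 and 43.2 CPM against 45.4, 47.03 and 50.2 CPM (fold -0.09), ranges that overlapped.

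On ER-labelled ribosomes 0 of 47 members were called as well, and 2.63% of tested genes were higher and 1.38% lower with Lsg1 siRNA. At shares this small, 0 of 47 does not set the members apart. Of the members, 6 had an unadjusted p under 0.05, as had 3047 of all 17702 tested genes. The smallest edgeR adjusted p among the members was 0.165. That was Xrcc1, at 86.3, 90.5 and 91.9 CPM against 84.9, 84.4 and 83.7 CPM (fold 0.09, SE 0.03). Xrcc5 stood at 139, 141 and 138 CPM against 150, 146 and 143 CPM (fold -0.07), and Fancl at 38.6, 39.3 and 39.9 CPM against 42.9, 41.5 and 40.4 CPM (fold -0.09). All 3 genes had groups without overlap, but they were picked for the smallest p in this comparison. The share of such genes over all tested genes was not counted. The 95% interval lay within 1.2-fold for 45 of 47 members and within 1.5-fold for all, the widest reaching 0.32 for Atr and -0.28 for Trp53bp1. Without ER-bound scramble replicate 1, Fancd2 (-0.16, adjusted p = 0.0275) and Trp53bp1 (-0.23, adjusted p = 0.0143) were called lower. With the offset and the replicate block together these were called too, along with Xrcc5 (-0.08, adjusted p = 0.0455).

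**Figure D5:**
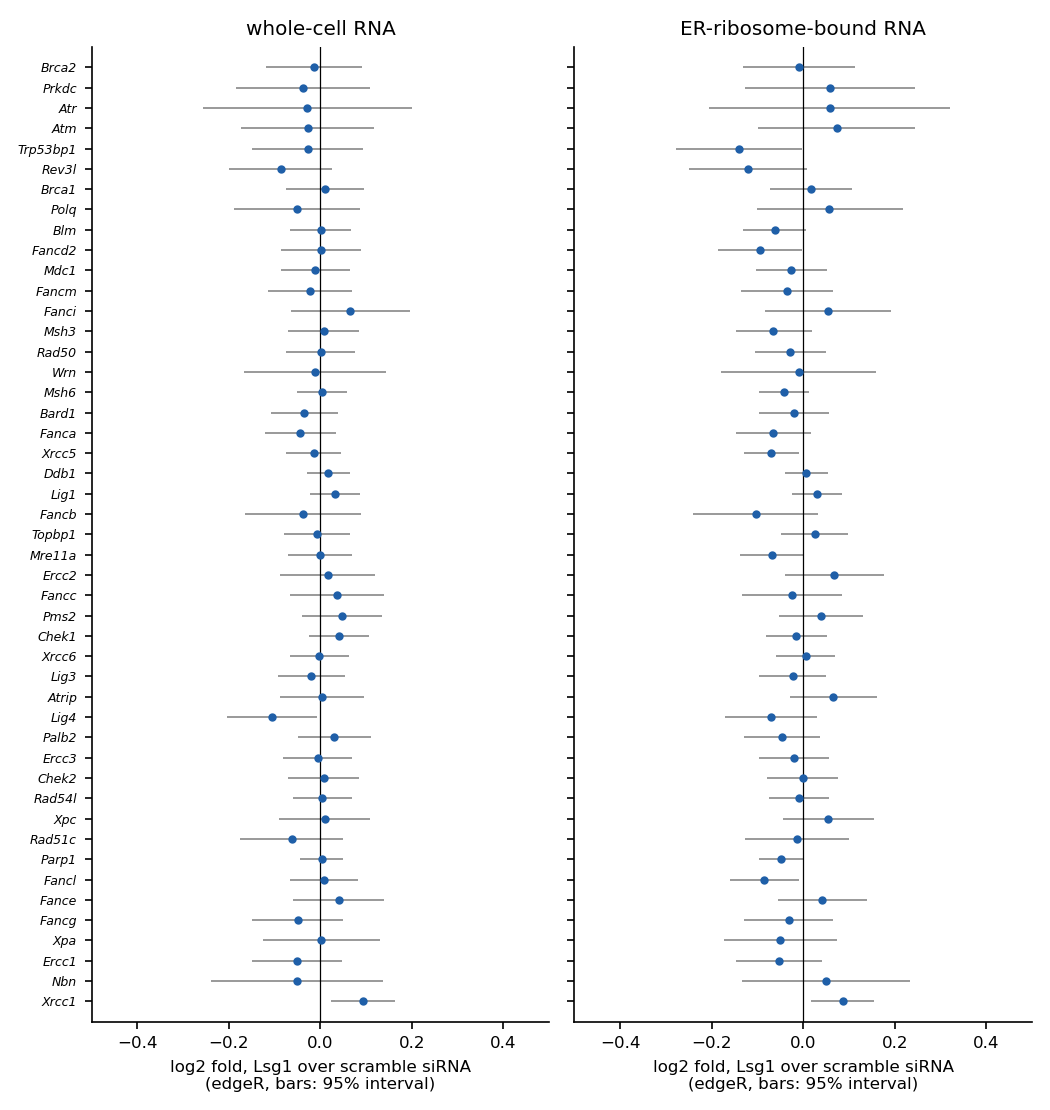
Log2 fold of Lsg1 over scramble siRNA with its 95% interval from edgeR for each member, in whole-cell (left) and ER-bound RNA (right), ordered by the ER over whole-cell fold. Points lie between -0.14 and 0.09, and no member passed the threshold.

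The interaction asks whether the ER over whole-cell fold differed between the siRNAs. No member passed it in edgeR, and 4 of 17702 genes (0.0226%) were called. None of the members had an unadjusted p under 0.05, against 1219 of all tested genes. DESeq2 called 18 genes. The smallest p values belonged to Fancl (difference -0.09, SE 0.05, edgeR adjusted p = 0.791), Parp1 (-0.05) and Fancd2 (-0.10). Parp1 stood at 740, 719 and 718 CPM in ER-bound and 806, 805 and 801 CPM in whole-cell RNA with scramble siRNA, and at 703, 708 and 695 CPM and 803, 798 and 816 CPM with Lsg1 siRNA. Fancd2 stood at 50.9, 52.1 and 53.6 CPM in ER-bound and 108, 106 and 105 CPM in whole-cell RNA with Lsg1 siRNA, and Fancl at 47.2, 45.5 and 46.3 CPM in whole-cell RNA with Lsg1 siRNA and 44.9, 47.3 and 45.8 CPM with scramble siRNA. The interval was within 1.2-fold for 41 of 47 members and within 1.5-fold for all.

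Levels per length set the amounts behind these ratios. Per kilobase of the longest transcript, Ddb1 had the highest whole-cell level with scramble siRNA at 259 CPM per kb, followed by Parp1 (208) and Msh6 (203). Polq (2.62), Wrn (3.35) and Prkdc (4.08) had the lowest. The median whole-cell level of the members, not divided by length, was 63.6 CPM and their range 10.2 to 1154 CPM.

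A wider list of 98 other repair genes, all of which were tested, was less uniformly low. With scramble siRNA 55 were lower, 19 higher and 24 did not pass, with a median of -0.14, and with Lsg1 siRNA 54 were lower and 16 higher. The lowest were Rif1, a 53BP1 effector, at 94.1, 128 and 138 CPM against 476, 463 and 493 CPM (fold -1.99, SE 0.09), and Clspn, the adaptor between Atr and Chek1, at 23.5, 26.9 and 27.2 CPM against 74.5, 80.1 and 80.1 CPM (fold -1.599, SE 0.05). Brip1, a helicase that binds Brca1, was at 11.6, 13.7 and 14.8 CPM against 22.8, 24.5 and 22.8 CPM (fold -0.81), and Mlh3, a mismatch repair protein, at 35.6, 35.8 and 37.7 CPM against 64.7, 62.1 and 63.0 CPM (fold -0.80). These 4, and the 4 highest below, were picked among genes called with scramble siRNA that kept 1 direction in all 3 same-numbered pairs. In none of the 4 lowest did the fractions overlap, which this pick largely gives. Mgmt, which removes alkyl groups from guanine, had the highest fold, at 11.01, 10.7 and 10.6 CPM against 6.05, 7.02 and 6.86 CPM (0.69, SE 0.07). Mad2l2, a subunit of polymerase zeta, was at 51.6, 45.3 and 45.2 CPM against 34.5, 35.8 and 34.8 CPM (0.44), and Nhej1, an end joining scaffold, at 9.66, 8.32 and 8.45 CPM against 6.02, 7.05 and 7.22 CPM (0.38). Alkbh2, an alkylation repair enzyme, was at 30.4, 26.8 and 28.9 CPM against 22.6, 22.7 and 22.4 CPM (0.35). These 4 were higher in every ER-bound library, which the same pick largely gives. Mad2l2 and Rev3l, subunits of that polymerase, thus lay on either side of 0. On ER-labelled ribosomes 1 of the 98 was higher and 1 lower with Lsg1 siRNA (1.02% each, below the 2.63% and 1.38% of all tested genes): Hus1, part of the checkpoint clamp, rose (fold 0.20, SE 0.03, adjusted p = 0.00241) and H2afx, the histone marked at breaks, fell (-0.19, SE 0.04, adjusted p = 0.00694). Of 37 genes of the DNA replication machinery, 28 were lower and 3 higher with scramble siRNA (median -0.22), the lowest being Pola1, the catalytic subunit of the priming polymerase (-1.59, SE 0.09).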

How the data were processed

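The labels' protocols describe poly-A RNA libraries made with a directional kit from 750 ng of RNA with 9 PCR cycles, read as paired 150 bp ends, from purified ER-labelled ribosomes and from the lysates used as their input. The authors deposited raw read counts per gene for each of the 12 libraries. The submitters' processing notes name STAR 2.7.9a, HTSeq 0.11.2, DESeq2 and the GRCm39 build. How counting treated strand, and which annotation release it used, is not given in the sources used here. Whether reads of overlapping antisense genes were kept apart is therefore not known. The 5 summary lines of each table were left out.

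Symbols, lengths and coding sequences came from GENCODE M21 (GRCm38), used for names and sequence only; 52083 of 55416 IDs (93.99%) matched. Counts were tested in edgeR 4.0.16 (R 4.3.3; TMM, filterByExpr, quasi-likelihood F-test, Benjamini-Hochberg over 17702 genes, threshold 0.05, biological coefficient of variation 4.42%, residual degrees of freedom 8) with all 12 libraries and 1 mean per group. Length, GC content and hydropathy are descriptions; hydropathy used windows of 11 residues within the first 40, translated from the coding sequence. The tests were checked on simulated counts.

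The members and gene lists were chosen with earlier results of these data known. Sample values are given for Lsg1, for the lowest and highest fold of each role, for the 3 members with the smallest p in each siRNA comparison and for the 4 lowest and 4 highest other repair genes; genes named beyond this rule (in the partner pairs and for replicate 1) were picked after their values were seen. The 2 fractions of a lysate are paired by design, and deviations from the group means correlated from -0.004 to 0.202 between them. Alternatives were DESeq2 size factors, library totals, other low-count filters (none, or 2 CPM in 3 libraries), DESeq2 1.42.0, limma-voom (limma 3.58.1), a replicate block, a fit of the compared groups alone, a fit that dropped mitochondrial and ribosomal protein genes, a GC and length offset (splines, 5 degrees of freedom), and libraries left out. CPM values of 3 replicates show counting error and culture differences together. Plots used matplotlib 3.10.9 (Python 3.11.15).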

Additional observations from a re-analysis of the deposited data

How the results depend on the processing

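The count of lower members in the fraction comparisons, 41 in each, ran from 39 to 44 over the alternatives. With library totals the median fold of the members was -0.363 with scramble and -0.386 with Lsg1 siRNA, and 5 members were higher with Lsg1 siRNA. With the GC and length offset, alone or with the replicate block, 0 members were higher in either comparison. Over all tested genes the offset alone gave 4501 higher and 5750 lower with scramble siRNA. With Lsg1 siRNA it gave 4606 higher and 6058 lower. Under the offset, Fance, Fancg, Ercc1 and Xpa turned to -0.251, -0.122, -0.114 and -0.063 with scramble and to -0.255, -0.116, -0.120 and -0.117 with Lsg1 siRNA. With the offset and the block they were -0.253, -0.123, -0.111 and -0.065 with scramble and -0.258, -0.117, -0.117 and -0.113 with Lsg1 siRNA. The fold of Fance, near 0 in edgeR, was -0.00038 with DESeq2 size factors, -0.00047 in DESeq2, and -0.00015 (scramble) and -0.008 (Lsg1 siRNA) without mitochondrial and ribosomal protein genes. Leaving out 1 library at a time gave Fance -0.029 to 0.025 and Fancg -0.004 to 0.042 with scramble, Fance -0.040 to 0.034 with Lsg1 siRNA, and a scramble median of -0.474 to -0.425. The cause of these turns was not tested.

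For the siRNA in whole-cell RNA the genes called numbered 26 without the low-count filter, 5 with the replicate block, 1 with the offset, 8 with both, 4 without the 2 libraries that stand apart, 2 with only the groups compared and 5 in DESeq2, against 0. In ER-bound RNA they numbered 1178 with the block, 1514 with the offset and block and 375 with only the groups compared, against 710, and 290 to 854 with 1 library left out. There, 3 members were lower with the offset and block, and 0 to 2 with 1 library left out, with a members' median of -0.060 to -0.017. For the interaction 59 genes were called without the low-count filter, 10 with the block, 16 with the offset and block and 18 in DESeq2, against 4, and 3 to 8 with 1 library left out. The members' interaction median was -0.028 without the filter, -0.025 with the offset and -0.025 with the offset and block, and -0.040 to -0.003 with 1 library left out. Across the siRNAs the replicate number was not taken as a pairing, since same-numbered deviations correlated at 0.118, 0.007 and 0.203 in whole-cell and 0.277, 0.045 and 0.243 in ER-bound RNA; every library correlated best with its own number, a hint from the data only. With the block by lysate, Nbn passed the threshold in the scramble comparison, and no other call of a member changed there.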
